A study of Mus musculus with 9 samples.

Results

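Genes that build cholesterol and fatty acids were examined in mouse colons in which the Hedgehog receptor Ptch1 had been deleted. The list held 35 genes, chosen by name for their place in sterol and fatty acid synthesis, with earlier results of these data known. A row of the deposited table (a probe set, a group of short probes that reads a transcript) was taken as a member where the platform annotation gave it exactly 1 gene symbol and that symbol was in the list. This gave 80 rows of 34 genes, out of 34945 rows of 18193 genes with 1 symbol. No row carried the symbol Acat2 alone, so this cytosolic thiolase was not analysed here.

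The mutant group was Rosa26-CreERT2-Ptch1fl/fl mice (5 arrays) and the wildtype group was Rosa26-CreERT2-Ptch1+/+ mice (4 arrays). Both groups carried the tamoxifen-inducible Cre, both received 1 mg tamoxifen by intraperitoneal injection on 5 days in a row, and colons were taken at day 12. Their strain background mixed C57BL/6 with Balb/c. The Cre is driven from the Rosa26 locus and acts throughout the body, and whole colons were profiled, so fewer cells of a type and less RNA per cell cannot be told apart. The labels do not say whether each sample is a separate animal, so p-values here reflect sample-to-sample spread that may be technical.

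Cholesterol is built in the cytosol and endoplasmic reticulum. The mevalonate arm turns acetyl-CoA into isoprenoids, squalene synthase commits these to sterols, and a chain of post-squalene enzymes closes and trims the rings. When sterols are scarce in the membrane, the escort protein Scap carries the SREBP transcription factors to the Golgi for activation, and the Insig proteins hold them back when sterols are plentiful. Srebf2 mainly drives the sterol enzymes and Srebf1 mainly the fatty acid enzymes, and the gut epithelium, which renews itself continually, makes membrane lipid of its own.

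In the deposited table, rows of 1 gene shared the strength of the group difference but not its direction. Among member genes, 7 pairs of rows of the same gene were both called, and 2 of these pairs had the same sign while 5 had opposite signs. Over all rows with 1 symbol, 172 of 355 such pairs had the same sign. For this reason no direction, fold or level is given for any named gene. It is not known whether each name stands beside the values of its own probe set, so every value below is of the row that carries a name, and for a single gene its call and its array positions are uncertain in the same way. What is given is the absolute moderated t from limma, which is the size of the difference between the groups divided by its standard error, its percentile among all 34945 rows with 1 symbol, and the p-value adjusted by Benjamini-Hochberg over all 45037 non-control rows. A row was called when that adjusted p was under 0.05.

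The samples themselves were checked as far as the row names allow. Ptch1 had 3 rows, with limma adjusted p of 0.0761, 0.0894 and 0.834, and it is not known whether they read the deleted exons. The row of Gli1, a Hedgehog target, was at 0.153. Rows named for absorptive colonocyte, goblet cell and smooth muscle markers had median signal levels at the percentiles 63.3, 40.2 and 52.2 of all rows, against 36.0 for hepatocyte markers, so the labelled tissue could not be checked by level. Array numbers in the sample titles averaged 4.2 for mutants and 8 for wildtypes.

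Sterol and fatty acid synthesis genes lay far toward the strong end of the ranking. Because the list was chosen with earlier results of these data known, its contrast with all rows is a description and not independent support. The median member row was at percentile 88.6 of absolute t, where all rows by construction have their median at 50. Of the 80 member rows 23 were called by limma, which is 28.7%, against 5.19% of all rows with 1 symbol. The 23 rows belonged to 17 of the 34 genes (50%), against 8.43% of all genes with at least 1 called row. The mutant and wildtype arrays did not overlap in 36 member rows (45.0%), against 9.78% of all rows, and all 23 called rows were among the 36. A further 12 member rows had an adjusted p from 0.05 to under 0.10. The share of all rows in that range was not counted, so the 12 cannot be read as a trait of the members. Of the 34 genes 22 had a row above the 90th percentile, against 15.3% of all genes.

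The arms of the pathway differed in where their rows lay. The median percentile was 94.8 for the mevalonate arm (14 rows), 91.4 for the squalene and post-squalene arm (24 rows), 87.1 for elongation and desaturation (19 rows), 86.4 for fatty acid synthesis (11 rows) and 62.1 for sterol sensors and carriers (12 rows). Called rows numbered 7, 7, 7, 0 and 2 in the same order. These are descriptions of the lists, and the difference between arms was not tested. The fatty acid synthesis rows had a high median with 0 calls, and 11 rows are too few to set 0 apart from 5.19%. Of the 11 rows 7 were at an unadjusted p under 0.05, where 21.1% of all rows were.

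**Figure D1:**
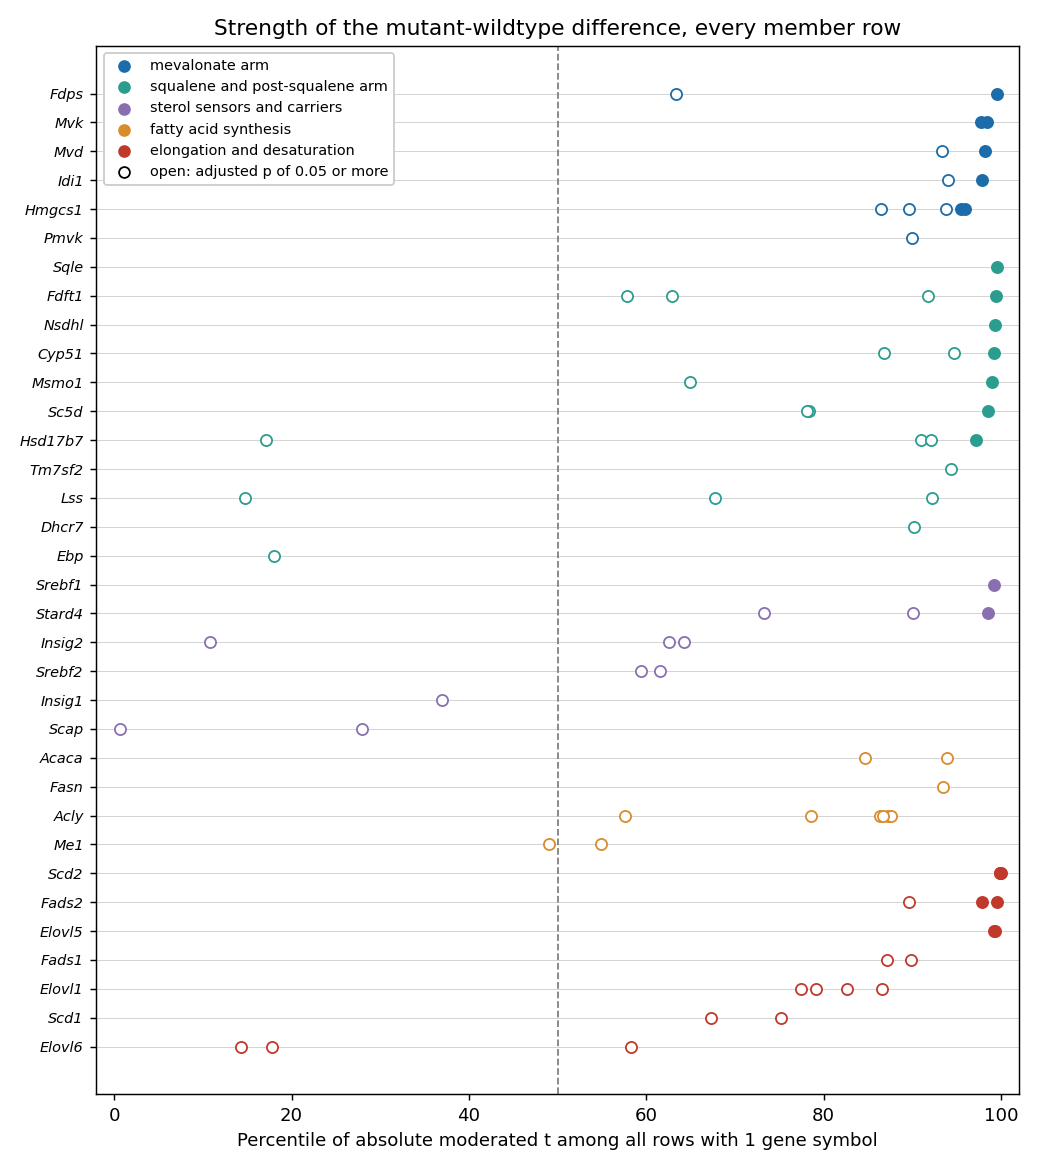
Percentile of the absolute moderated t (x axis, in percent, 100 is the strongest difference) for every member row, 1 line per gene, coloured by arm, with called rows filled and the dashed line at the middle of all rows. Filled points of 17 genes sit at the right, 70 of 80 rows lie right of the line, and the sensor genes Scap, Insig1 and Insig2 have rows left of it.

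**Figure D2:**
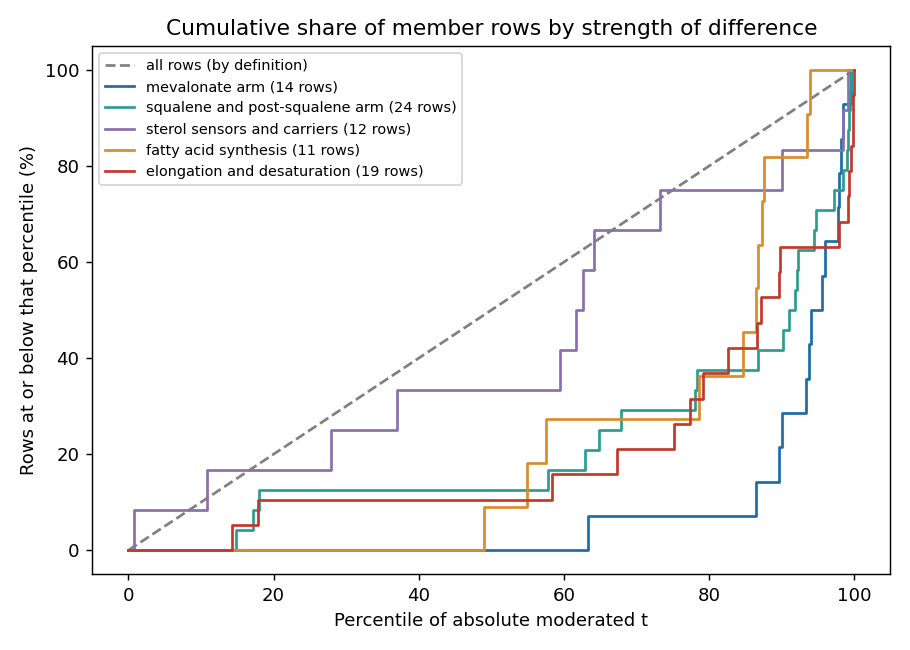
Cumulative share of rows (y axis, percent) at or below each percentile of absolute t (x axis) for the 5 arms, with the dashed diagonal standing for all rows. Of the 14 mevalonate rows 1 lies below percentile 86, the elongation and desaturation curve is the lowest at the strong end (upper quartile 99.2, against 97.9 for the mevalonate arm), and the sensor curve runs nearest the diagonal.

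Array number moved with the groups and its part in these results was not tested beyond adding it to the fit. With array number as a covariate, 1 member row was called (a row of Scd2), and the share of all rows with 1 symbol that were called was 0.0773%. At an unadjusted p under 0.05 that fit held 40 of the 80 member rows (50%) against 14.3% of all rows, and the median percentile of member rows was 85.0. Without wildtype replicate 4 the number of called member rows was 9, without wildtype replicate 3 it was 10 and without mutant replicate 2 it was 15, while the share over all rows with 1 symbol was 1.02%, 0.987% and 1.77%.

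Values in single arrays are given below as positions with direction removed. A position is the distance of an array from the midpoint of the 2 group means. Its unit is the row's residual standard deviation after limma's moderation, which draws it toward a value common to all rows. Residual standard deviations below are of this kind. The sign is turned so that the mutant mean is always above 0. A positive position thus says nothing about whether the mutants were higher or lower in signal. Arrays are listed as mutant replicates 1 to 5 and wildtype replicates 1 to 4.

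In the mevalonate arm 5 of the 6 measured genes had a called row (against 8.43% of all genes). Of its 14 rows 11 separated the groups without overlap (78.6%, against 9.78% of all rows). Fdps, which makes farnesyl pyrophosphate, had the strongest row of the arm (1423418_at, absolute t 7.05, limma adjusted p = 0.0123). There the mutants lay at 0.65, 2.35, 1.79, 3.43 and 3.6 and the wildtypes at -2.09, -3.81, -1.5 and -2.06. The groups were thus apart by 2.14 residual standard deviations, with mutant replicate 1 and wildtype replicate 3 nearest to each other. The second Fdps row was at percentile 63.3 and an adjusted p of 0.5 by limma, so the rows of this gene did not share a call.

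Mvk, which phosphorylates mevalonate, had both of its rows called (limma adjusted p = 0.0225 and 0.0263). In the stronger row the mutants lay at 2.11, 3.09, 0.08, 0.93 and 3.09 and the wildtypes at -2.21, -2.32, -0.85 and -2.06. The gap was 0.93, and mutant replicate 3 was closest to the wildtypes. Mvd, the decarboxylase that yields isopentenyl pyrophosphate, had 1 of 2 rows called (limma adjusted p = 0.0228 and 0.0656). Idi1, the isomerase of that product, also had 1 of 2 called (0.0248 and 0.0583 by limma). In the called Idi1 row the mutants lay at 0.9, 1.11, 4.01, 0.94 and 1.92 and the wildtypes at -2.61, -1.98, -1.44 and -1.07, so mutant replicate 3 was well beyond the other mutants. Pmvk, the kinase after Mvk, had 1 row, not called, in which the groups overlapped (limma adjusted p = 0.101).

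Hmgcs1, the synthase that makes HMG-CoA at the entry of the arm, had 5 rows, all between percentiles 86.5 and 96. Of these 2 were called (limma adjusted p = 0.0397 and 0.0443), and the groups did not overlap in 4. Leaving out single arrays ended these calls often: the first held in 2 of 9 such fits and the second in 3. Its promoter is shown because it was the only member promoter with a match to the letters of the sterol response element, the SREBP binding sequence. The region runs from 250 bases before to 50 after the RefSeq start, at chr13:119690101-119690400 of GRCm38.p6, on the plus strand. Capitals mark the match to TCACNCCAC, which begins 137 bases before the start, and 4 matches to CCAAT read on the opposite strand, of which 3 lie before the start and 1 after it.

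Hmgcs1 promoter: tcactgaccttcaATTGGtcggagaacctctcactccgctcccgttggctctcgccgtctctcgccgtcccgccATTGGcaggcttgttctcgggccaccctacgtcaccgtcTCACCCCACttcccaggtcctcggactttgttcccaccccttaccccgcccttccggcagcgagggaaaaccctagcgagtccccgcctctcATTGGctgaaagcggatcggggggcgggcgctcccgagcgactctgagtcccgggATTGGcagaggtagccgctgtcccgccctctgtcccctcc

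Promoters were given for 28 of the 35 genes, 38 promoters in all. Both strands were searched, and in the promoter shown the matches of the motifs do not overlap. TCACNCCAC was found in 1 of the 38 (2.63%), against 1.24% of 32851 RefSeq promoters of the same length. CCAAT, the box bound by the factor NF-Y, was found in 24 of 38 (63.2%), against 37.4% of all promoters. By gene it was found in 23 of 28 (82.1%), against 41.1%. It was found in 5 of 6 genes of the mevalonate arm and 9 of 9 of the squalene and post-squalene arm. The counts were 4 of 5 for sensors and carriers, 3 of 4 for fatty acid synthesis and 2 of 4 for elongation and desaturation. A match describes letters only.

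In the squalene and post-squalene arm 7 of 11 genes had a called row, and 12 of 24 rows separated the groups. Sqle, squalene epoxidase and a slow step of the pathway, had 1 row (1415993_at), with an absolute t of 7.01 and a limma adjusted p of 0.0124. Mutants lay at 1.6, 3.1, 3.1, 2.95 and 1.02 and wildtypes at -2.36, -3.68, -2.41 and -0.95. Mutant replicate 5 and wildtype replicate 4 were nearest to each other, 1.97 apart. Fdft1, squalene synthase, had 4 rows spread from percentile 57.8 to 99.4, with 1 called (limma adjusted p = 0.0128). In that row the mutants lay at 1.47, 2.48, 1.83, 3.58 and 2.14 and the wildtypes at -0.66, -3.13, -3.01 and -2.39, with wildtype replicate 1 set toward the mutants. Both calls held in all 9 fits that left out an array.

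Nsdhl, a dehydrogenase that helps remove methyl groups at carbon 4 of the sterol ring, had 1 row (limma adjusted p = 0.0139) that was called in all 9 such fits too. Its mutants lay at 2.71, 2.13, 2.96, 0.42 and 2.92 and its wildtypes at -3.06, -0.94, -3.12 and -1.79. Mutant replicate 4 and wildtype replicate 2 narrowed the gap to 1.36. Cyp51, the lanosterol demethylase, had no overlap between groups in any of its 3 rows, with limma adjusted p of 0.0155, 0.0513 and 0.145. In its called row the mutants lay at 0.8, 2.93, 2.95, 1.0 and 3.05 and the wildtypes at -1.3, -2.75, -1.2 and -3.34, with mutant replicates 1 and 4 the lowest mutants. Msmo1, the methylsterol oxidase that works with Nsdhl, had 1 of 2 rows called (limma adjusted p = 0.0164 and 0.477).

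Sc5d, the sterol desaturase, had 1 of 3 rows called (limma adjusted p = 0.0207, the others 0.272 and 0.274), and Hsd17b7, a keto-reductase of the pathway, 1 of 4 (0.0307, the others 0.0784, 0.0899 and 0.919 by limma). Tm7sf2, a sterol reductase, was at 0.0542 in its only row by limma, with no overlap between the groups. Dhcr7, which makes cholesterol in the last step, was at 0.0988 by limma with overlap. Lss, the cyclase that forms lanosterol, had 3 uncalled rows at percentiles 92.2, 67.8 and 14.8. Ebp, the sterol isomerase, was at percentile 18.0 (limma adjusted p = 0.914), the lowest of the arm's genes by their best row.

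Sterol sensors and carriers lay nearer the middle of all rows, with 2 of 12 rows called (16.7%, against 5.19% of all rows). Srebf1, whose product turns on fatty acid genes, had its only row called (1426690_a_at, absolute t 6.39, limma adjusted p = 0.0155). Mutants lay at 2.49, 2.72, 2.02, 0.46 and 3.02 and wildtypes at -1.92, -0.68, -2.7 and -3.27. The groups were 1.14 apart, between mutant replicate 4 and wildtype replicate 2, and the call was lost without wildtype replicate 3 or 4 (limma adjusted p up to 0.0558). Stard4, a soluble carrier of cholesterol between membranes, had 1 of 3 rows called (limma adjusted p = 0.0211, the others 0.1 and 0.345). In that row the mutants lay at 2.09, 2.77, 2.7, 0.05 and 1.89 and the wildtypes at -2.94, -0.83, -1.67 and -2.15, with the same pair of arrays nearest.

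The other sensors were not called. Srebf2, the transcription factor of the sterol enzymes, had rows at percentiles 59.4 and 61.6 (limma adjusted p = 0.549 and 0.521). Scap, the escort of both SREBPs, had rows at 0.7 and 27.9, and Insig2 at 10.8, 62.6 and 64.2. The single row of Insig1 was at percentile 37.0 (limma adjusted p = 0.788), with mutants at 0.75, 0.31, -1.14, -0.13 and 1.43 and wildtypes at -1.38, 0.12, -0.18 and 0.46. The ranges of the 2 groups overlapped. Insig1 is itself a well-known SREBP target, and the part of SREBP activity in these ranks was not tested.

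In fatty acid synthesis 0 of 11 rows were called by limma, beside 5.19% of all rows. Acaca, which makes malonyl-CoA and so commits carbon to fatty acids, had rows at adjusted p of 0.0597 and 0.174 by limma. Fasn, the synthase itself, was at 0.0635 by limma in 1 row, with mutants at -0.51, 1.57, 2.63, 1.99 and 0.81 and wildtypes at -0.99, -1.68, -0.31 and -2.21. Mutant replicate 1 lay below wildtype replicate 3, which was the only overlap. When each gene was represented by its brightest row, fit and adjustment ran over 18193 genes in place of 45037 rows. In that fit Acaca passed at 0.044, Fasn at 0.0492 and Tm7sf2 at 0.0469 by limma, while Stard4 lost its call at 0.0794. Fasn and Tm7sf2 have 1 row each, so for them the row was the same and only the set fitted differed. By brightest row 19 of the 34 member genes were called, against 8.1% of all genes. Acly, which supplies cytosolic acetyl-CoA from citrate, had 6 rows with limma adjusted p from 0.135 to 0.572, 5 of them at or above percentile 78.6. With the mean of its 6 rows Acly was at an adjusted p of 0.0161 by limma. Me1, malic enzyme and a source of NADPH, had rows at percentiles 49.0 and 54.9. The mean of a gene's rows, also adjusted over genes, called 12 member genes in place of 17. Over all 18193 genes it called 1108 in place of 1534. It ended the calls of Scd2 (limma adjusted p = 0.0613), Fads2 (0.0698), Hmgcs1 (0.0765), Elovl5 (0.1), Fdft1 (0.129), Sc5d (0.19), Hsd17b7 (0.612) and Mvk (0.889), and Acaca was at 0.18. Since rows of 1 gene do not share a sign, such a mean can cancel differences and is hard to read.

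Among desaturases and elongases 3 of 7 genes held all 7 called rows, out of 19 rows (36.8%, against 5.19% of all rows). Scd2, a stearoyl-CoA desaturase that makes monounsaturated fatty acids, gave the strongest member row, which ranked 8 of all 34945 rows by absolute t. In this row (1415822_at, absolute t 13.1, limma adjusted p = 0.00137) the mutants lay at 5.21, 3.6, 4.5, 4.85 and 3.81 and the wildtypes at -2.9, -3.34, -5.87 and -5.46. The gap of 6.5 residual standard deviations was wider than the spread within either group. The second row had mutants at 1.24, 3.49, 4.48, 3.43 and 2.22 and wildtypes at -3.0, -1.86, -4.07 and -2.96 (limma adjusted p = 0.00713). The third had mutants at 4.47, 1.87, 2.4, 2.64 and 4.04 and wildtypes at -2.68, -3.14, -2.4 and -4.11 (limma adjusted p = 0.00615). All 3 Scd2 rows were called in each of the 9 fits that left out an array, and they were the only member rows under an adjusted p of 0.01. With array number as a covariate the limma adjusted p were 0.0227, 0.0844 and 0.0886. Without the Scd2 rows the members had 20 of 77 rows called (26.0%) and a median percentile of 87.3.

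Fads2, the delta-6 desaturase of polyunsaturated fatty acids, had 2 of 3 rows called (limma adjusted p = 0.0122 and 0.0247, the third 0.105). In the strongest the mutants lay at 2.65, 2.86, 2.11, 3.63 and 0.82 and the wildtypes at -0.96, -2.14, -3.73 and -2.82, with mutant replicate 5 and wildtype replicate 1 nearest. Elovl5, an elongase of polyunsaturated chains, had both rows called (limma adjusted p = 0.0147 and 0.0149). In the first the mutants lay at 1.27, 2.03, 2.18, 3.71 and 1.74 and the wildtypes at -2.44, -0.47, -2.29 and -3.55, which left a gap of 1.74. Fads1, the delta-5 desaturase that acts after Elovl5 and Fads2, had rows at 0.103 and 0.141 by limma.

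The other desaturases and elongases had no called row. Scd1, the closest relative of Scd2 in the list, was at percentiles 67.3 and 75.2 (limma adjusted p = 0.44 and 0.319). In its stronger row the mutants lay at 0.12, 1.77, 2.32, -0.43 and -0.37 and the wildtypes at 0.29, -0.29, -1.26 and -1.46, so the groups overlapped. The difference between the Scd1 and Scd2 rows was not tested. Elovl1, an elongase of very long chains, had 4 rows between percentiles 77.4 and 86.6, and Elovl6, which lengthens palmitate, had rows at 14.3, 17.8 and 58.3. Probe sets whose names end in _x_at or _s_at can bind more than 1 transcript by the array's naming, which applies to rows of Elovl1, Elovl5, Fads2, Acly, Hmgcs1, Fdft1, Lss, Mvd and Hsd17b7.

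**Figure D3:**
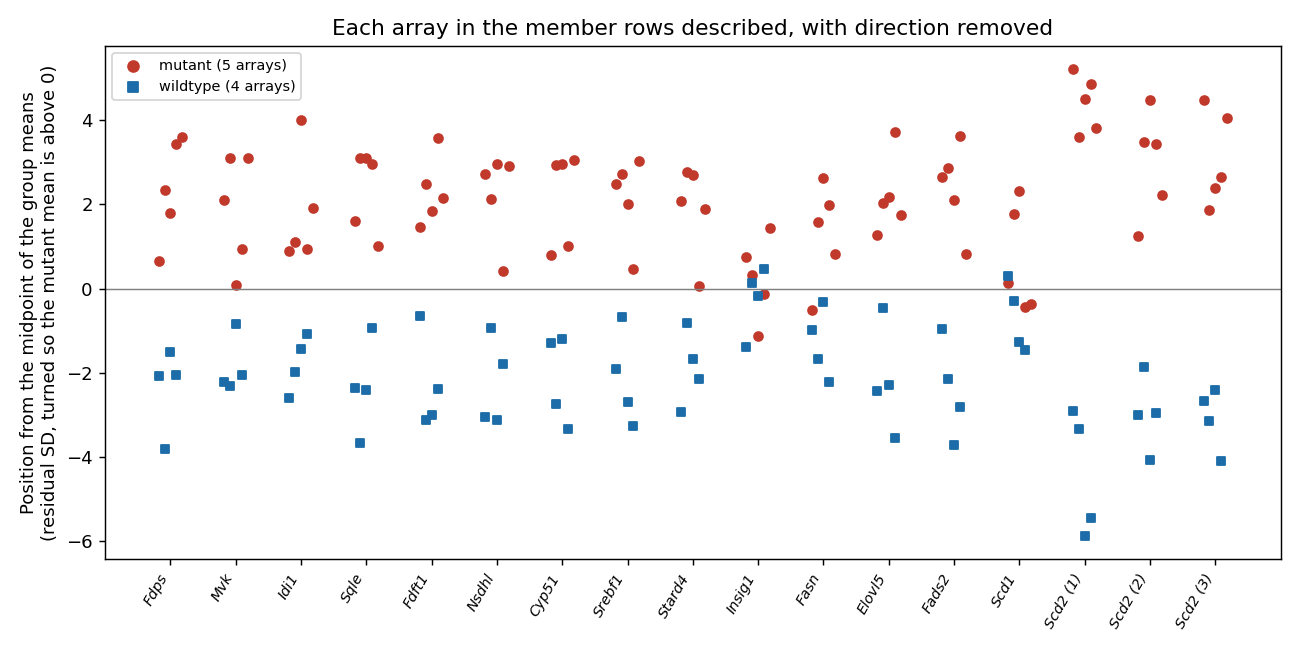
Position of each array in 17 member rows (y axis, residual standard deviations from the midpoint of the group means, turned so that the mutant mean is above 0), with mutants as circles and wildtypes as squares, replicates in order from left to right. The groups are widest apart in the first Scd2 row, with a gap of 6.5, and overlap in the rows of Insig1, Fasn and Scd1.

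Neighbouring lipid genes outside the list were read in the same way. Of 37 rows of 17 other genes of lipid synthesis 8 were called (21.6%, against 5.19% of all rows), with a median percentile of 80.7. Their genes were Aacs, which activates acetoacetate for lipid synthesis (smallest limma adjusted p = 0.00865), the elongase Elovl7 (0.0175), the triglyceride enzyme Dgat1 (0.0233), the acyl-CoA synthetases Acsl5 (0.0362) and Acsl3 (0.0496), and Mid1ip1, which activates acetyl-CoA carboxylase (0.0426). Of 15 rows of 8 other steps and regulators of sterol synthesis 2 were called (13.3%, against 5.19% of all rows), with a median percentile of 25.2. They were Tmem97 (limma adjusted p = 0.0183) and the SREBP protease Mbtps2 (0.035). Sterol uptake, efflux and esterification had 0 of 20 rows called by limma, beside 5.19% of all rows, and 5 at an unadjusted p under 0.05 (25%), beside 21.1% of all rows, with a median percentile of 61.0. Its difference from the members was not tested.

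Markers of cells that carry much lipid or make up the mucosa were set beside these counts. For comparison, 5.19% of all rows with 1 symbol were called by limma and 21.1% were at an unadjusted p under 0.05. Of 10 rows of 6 adipocyte markers 2 were called, both of Fabp4 (smallest limma adjusted p = 0.0113), and their median percentile was 46.4. The smallest limma adjusted p was 0.209 for Cidec, 0.587 for Adipoq, 0.76 for Lep, 0.858 for Lipe and 0.964 for Retn, and the part of adipocytes in the result was not tested. Absorptive colonocyte markers had 3 of 11 rows called (27.3%), of the water channel Aqp8 and the chloride exchanger Slc26a3, with a median percentile of 91.1. Slc26a3 alone gave 4 of the 11 rows. The markers without a call had a smallest limma adjusted p of 0.0886 (Ceacam20), 0.253 (Krt20), 0.43 (Car4), 0.573 (Slc37a2) and 0.584 (Car1). Goblet cell markers had 1 of 10 called (Agr2, limma adjusted p = 0.0145, median percentile 51.6). Smooth muscle markers had 0 of 10 called by limma (5 at an unadjusted p under 0.05, median percentile 75). Macrophage markers had 0 of 7 (2, 35.3) and hepatocyte markers 0 of 9 (2, 43.5). Lists this short cannot set a count of 0 or 1 apart from the 5.19% of all rows. The share of colonocyte marker rows called, 27.3%, lay beside the 28.7% of the members, and the part of these cells in the result was not tested.

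**Figure D4:**
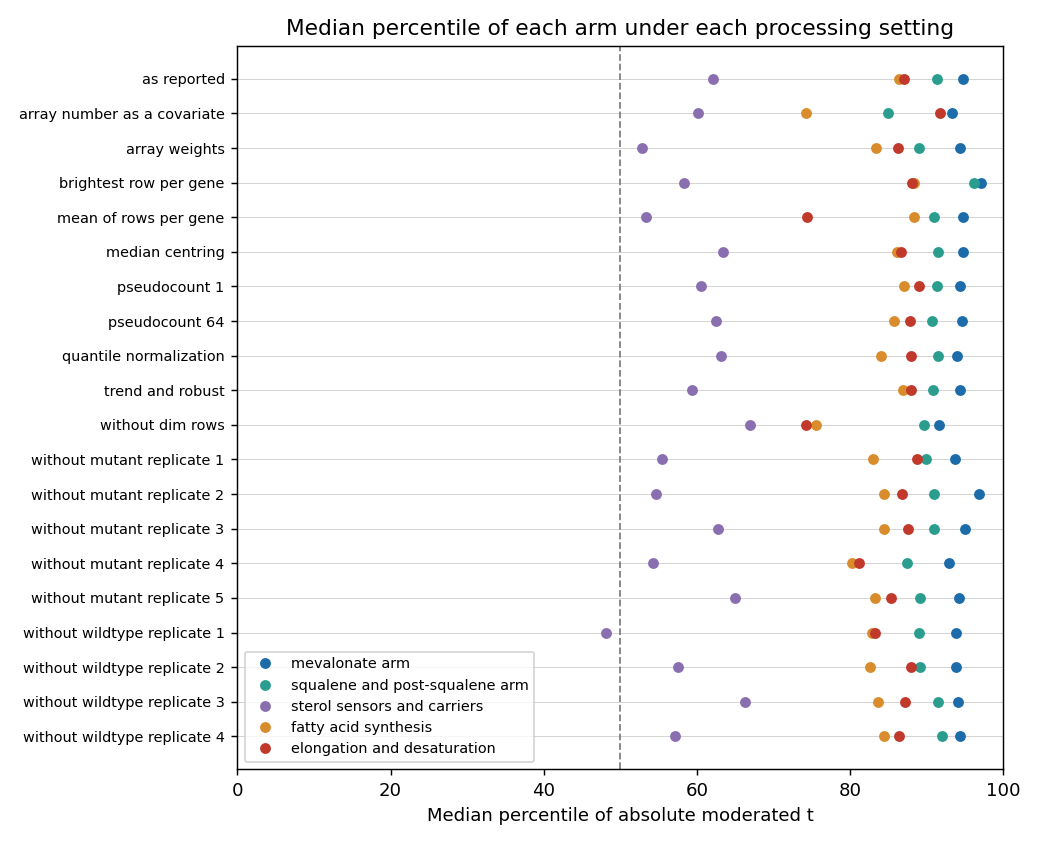
Median percentile of absolute t (x axis) for each arm under each processing setting (y axis), with the dashed line at the middle of all rows. The mevalonate arm stayed between 91.6 and 97.1 and the squalene and post-squalene arm between 85.0 and 96.2, while the sensors ranged from 48.1 to 67.0.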

How the data were processed

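Total RNA of 9 whole-colon mouse samples was hybridised to Affymetrix whole-genome arrays, 1 per sample. The deposited values are probe set intensity values on a linear scale, which the authors made with Expression Console 1.1 from Affymetrix (per the submitters' processing notes). The algorithm used to summarise probes is not given in the sources used here. Array medians lay between 53.8 and 54.7, so nothing was normalized further, and no 2 arrays were identical. Of 45101 rows, 64 controls were left out. The platform annotation gave 1 symbol to 34945 rows, several to 932 and none to 9160. Mutant and wildtype were compared as log2(intensity + 16) with limma 3.58.1 in R 4.3.3 (lmFit, eBayes, two-sided), checked on simulated data. All member genes are named with every row. Of other lists the called genes are named. Members and lists were chosen with earlier results of these data known. Lists are described by counts and medians, without a list test. Alternatives were the row per gene, a filter on dim rows, variance model, array weights, normalization, array number, pseudocount, threshold and each array left out. The number of arrays limits the precision.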

Additional observations from a re-analysis of the deposited data

How the results depend on the processing

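In all 20 settings the mevalonate arm had the highest and the sensors the lowest median percentile of the arms, while counts of called rows varied. Over fits leaving out 1 array, called rows ranged from 385 to 2577 among all 45037 (2029 with all arrays), from 9 to 25 among member rows, and from 7 to 19 among member genes. With array number as a covariate these were 30, 1 and 1. At an adjusted p under 0.01 they were 97, 3 and 1. All rows called were 3267 with array weights, and 1108 genes were called with the mean of rows per gene. The cause was not tested. Leaving out 1 array, median percentiles ranged from 85.6 to 88.5 for all member rows, 92.9 to 96.8 for the mevalonate arm, 87.5 to 92.0 for the squalene and post-squalene arm, 48.1 to 66.3 for the sensors, 80.2 to 84.5 for fatty acid synthesis and 81.2 to 88.8 for elongation and desaturation. With array number they were 85.0 for all members, 85.0 for the squalene and post-squalene arm and 74.3 for fatty acid synthesis. With the brightest row per gene they were 92.5 for all members and 96.2 for the squalene and post-squalene arm. Without dim rows they were 91.6 for the mevalonate arm, 75.6 for fatty acid synthesis and 74.3 for elongation and desaturation, which was 74.4 with the mean of rows. A count of member rows was not computed where each gene has 1 value. No paired analysis was possible because the labels give no replicate numbers that the groups share.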

Other observations

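In the 36 member rows whose groups did not overlap, wildtype replicate 2 was the wildtype nearest the mutants in 14 rows and wildtype replicate 1 in 13, while over all 3416 such rows with 1 symbol wildtype replicate 1 was nearest in 43.1% and wildtype replicate 2 in 25.6%. Among the mutants, replicate 1 was nearest the wildtypes in 10 of the 36 member rows (27.8%, against 25.4% of all such rows). Replicate 5 was nearest in 8 (22.2%, against 27.0%), so these counts are not a trait of the members.

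Called member rows were also called in all 9 fits leaving out an array in 8 of 23 cases (34.8%), against 271 of 1815 called rows with 1 symbol (14.9%). The 8 rows belonged to Scd2, Fads2, Fdps, Sqle, Fdft1 and Nsdhl. Leaving out wildtype replicate 4 ended 14 of the 23 calls, wildtype replicate 3 ended 13, and wildtype replicate 1 ended 0. Calls over all rows with 1 symbol numbered 355, 345 and 2274 in those fits, beside 1815 with all arrays.

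Rows of 1 member gene lay close in rank. Over the 25 member genes with at least 2 rows the range of percentiles within a gene had a median of 10.0, against 35.2 over 9010 genes. Member rows crowd toward the top of the scale, which by itself narrows such ranges. Of all 79 pairs of rows of 1 member gene, 44 had the same sign (55.7%).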
